A study of Mus musculus with 6 samples.

Results

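The guidance genes are the semaphorins of classes 3 to 7, the plexins and neuropilins that receive them, the Eph receptors and their ephrin ligands, and the Slit, Robo, netrin and Unc5 genes. They were chosen by gene symbol among the protein-coding rows of the deposited expression table, which gave 67 of 54532 rows: 20 semaphorins, 11 plexins and neuropilins, 14 Eph receptors, 8 ephrins and 14 genes of the Slit, Robo, netrin and Unc5 families. Their RNA was compared between mouse acute myeloid leukemia (AML) cells with and without a hematopoietic deletion of *Phf6*, which encodes a plant homeodomain finger protein of chromatin. In both groups the leukemia was driven by RUNX1-ETO9a (RE9a), a spliced form of the RUNX1-ETO fusion, carried by a retrovirus that also encodes GFP. Fetal liver cells of male mice were transduced with it and passed serially through male recipients, and GFP+ cells were then sorted from bone marrow. *WT Phf6,RE9a* cells carry the floxed *Phf6* allele (*Phf6* fl/y) without Cre, and *VC Phf6,RE9a* cells carry the same allele with *Vav1-Cre*, which is active in hematopoietic cells. There were 3 libraries per group, numbered 1, 2 and 3 in *WT Phf6,RE9a* libraries and 11, 12 and 13 in *VC Phf6,RE9a*. Nothing in the labels tells if these are separate leukemias, so the p-values measure only the spread between these libraries, which may be technical.

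Guidance genes were first described in growing axons, where a ligand on or from one cell tells another where to move. Semaphorins bind plexins, class 3 semaphorins do so together with neuropilins, and plexins act on small GTPases and the cytoskeleton. Ephrins are membrane-bound ligands of the Eph receptor tyrosine kinases, and both the receptor and the ephrin can signal upon contact. Slits bind Robo receptors, and netrins bind Dcc, neogenin and Unc5 receptors. Blood cells use several of these genes: Sema4d (CD100), Sema4a and Sema7a are known from lymphocytes and myeloid cells, and Eph receptors and ephrins from contacts of blood progenitors with marrow stroma.

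*Phf6*, on chromosome X of GRCm38 from 52912266 to 52956943, was read 1044, 827 and 1142 times in *WT Phf6,RE9a* libraries and 388, 314 and 331 times in *VC Phf6,RE9a* libraries. Its level fell from 64.2 ± 7.15 to 20.3 ± 2.36 CPM (read counts scaled to library size by TMM, mean ± SD, n = 3), a log2 difference of -1.66 (SE, the standard error, 0.13, and edgeR quasi-likelihood adjusted p = 9.32e-05). Total counts ran from 15675358 to 16817994 per library, and 3 counts, the upper limit behind a count of 0, were worth between 0.175 and 0.203 CPM. These limits cover counting error only. Of the 54532 genes, 14169 had enough counts to be tested, of which 21.5% were higher and 22.7% lower in *VC Phf6,RE9a* cells at an adjusted p under 0.05. For 57.3% of the tested genes the CPM values of the groups did not overlap.

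Many genes listed as markers of cell types differed between the groups. Such genes need not come from cells of that type: *Kit*, in the mast cell list, is also a marker the paper follows on the GFP+ leukemia cells. The 10 mast cell and basophil genes summed to between 18800 and 29900 CPM in *WT Phf6,RE9a* libraries and between 4960 and 5410 in *VC Phf6,RE9a* libraries, and 9 of the 10 were lower. The 9 erythroid genes went from 1630 to 2440 up to 5400 to 6250 CPM with 9 of 9 higher, and the 11 granulocyte genes from 172 to 546 up to 1060 to 3790 CPM with 11 of 11 higher. The 8 B cell genes summed to between 0.745 and 1.69 CPM in *WT Phf6,RE9a* libraries and between 9.49 and 29.1 in *VC Phf6,RE9a* libraries. The 12 endothelial genes summed to between 27.6 and 41.6 CPM and between 58.7 and 67.4 CPM, 3 of the 4 that were tested being higher, while *Emcn*, *Cldn5*, *Sox17* and *Sox18* had at most 3 counts in every library. The 12 mesenchymal genes summed to between 24.7 and 49.2 CPM and between 17.1 and 19.6 CPM, with 1 higher and 2 lower of 3 tested. Most of that sum was *Runx2* (505, 697 and 371 counts against 231, 218 and 209), while *Cxcl12* rose (12, 4 and 13 counts against 49, 67 and 58) and *Col3a1*, *Lum* and *Alpl* stayed at 3 counts or fewer. The 9 megakaryocyte and platelet genes summed to between 247 and 362 CPM and between 37.7 and 43.9 CPM. Of 4 tested, 1 was higher and 2 were lower. Most of the *WT Phf6,RE9a* sum was *Itga2b* (4479, 3734 and 2734 counts against 241, 244 and 243). In *VC Phf6,RE9a* libraries *Gp1ba* was the largest part (1064, 899 and 1318 counts against 345, 454 and 437). The 8 dendritic cell genes went from 40.8 to 57.4 up to 119 to 138 CPM, with 3 higher of 5 tested, and the 10 T and NK cell genes from 1.36 to 2.12 up to 6.88 to 9.96 CPM, where only *Lck* was tested and was higher. Of the 11 macrophage and monocyte genes, 3 were higher and 1 was lower. The 8 neuron and Schwann cell genes summed to between 10.8 and 17.3 CPM and between 14.1 and 20.5 CPM, with 1 higher of 3 tested. That gene was *Tubb3* (12, 4 and 10 counts against 53, 84 and 40), and 5 of the 8 had at most 3 counts in every library. Most of these sums differed between the groups, some up and some down, and their part in the results of the guidance genes below was not tested. In bulk RNA, fewer cells of a type and less RNA per cell cannot be told apart.

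Of the 67 guidance genes, 23 were tested and 44 had too few counts. Among the tested genes 9 were higher and 8 were lower in *VC Phf6,RE9a* cells, beside 21.5% and 22.7% of all tested genes, and for 18 of the 23 the groups did not overlap (10 above and 8 below), beside 57.3%. Entry into the test only through the group in which a gene is high favours a difference, though it does not force one. Of the 23, 6 reached 10 counts in every library of *VC Phf6,RE9a* only and 3 in every library of *WT Phf6,RE9a* only. Among the 6, *Nrp1* did not pass the threshold. Of the 14 with at least 10 counts in all 6 libraries, 9 passed the threshold. Over the whole table, a fit limited to such genes gave 2565 higher and 2717 lower among 12087 tested. The median log2 fold change was 0.16 over the 23 guidance genes and 0.01 over all tested genes. Since 6 of the 23 entered through *VC Phf6,RE9a* only and 3 through *WT Phf6,RE9a* only, the filter bears on this median. No shift of the guidance genes was read from it. Semaphorins counted 2 higher and 3 lower among 8 tested, plexins and neuropilins 2 and 2 among 6, Eph receptors 1 and 2 among 4, ephrins 2 and 1 among 3, and the Slit, Robo, netrin and Unc5 genes 2 and 0 among 2.

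**Figure D1:**
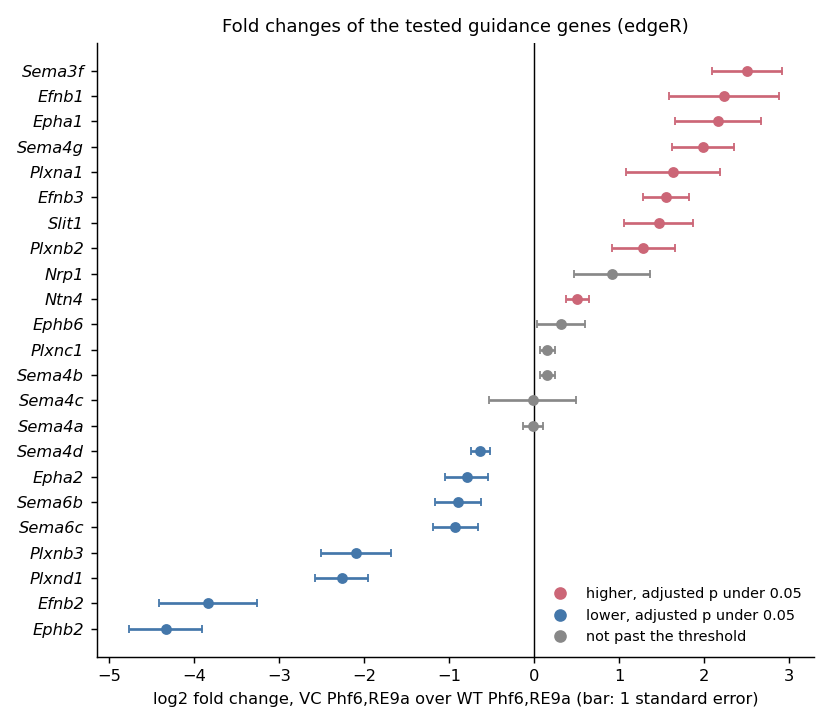
Log2 fold change, *VC Phf6,RE9a* relative to *WT Phf6,RE9a*, for the 23 tested guidance genes, from edgeR, with bars of 1 standard error. The 9 genes past the threshold on the higher side run from *Ntn4* at 0.51 to *Sema3f* at 2.51, and the 8 on the lower side from *Sema4d* at -0.63 to *Ephb2* at -4.34.

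The promoters of 4 genes past the threshold are printed here because *Ephb2*, *Plxnd1* and *Efnb2* had the smallest p-values of all guidance genes and *Epha1* is the next whose RefSeq window lies outside the deposited gene. Each is the 250 bases before the RefSeq start site on GRCm38.p6, 5′ to 3′ on the gene's own strand, which is the minus strand for all 4. Capitals mark the E-box letters CANNTG, the only one of 5 searched motifs found in them.
Ephb2, chr4:136836013-136836262: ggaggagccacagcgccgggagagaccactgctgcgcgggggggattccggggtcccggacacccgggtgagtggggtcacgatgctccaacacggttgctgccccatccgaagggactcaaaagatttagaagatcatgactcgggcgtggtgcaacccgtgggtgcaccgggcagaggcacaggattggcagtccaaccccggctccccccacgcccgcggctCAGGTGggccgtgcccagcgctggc
Plxnd1, chr6:115995006-115995255: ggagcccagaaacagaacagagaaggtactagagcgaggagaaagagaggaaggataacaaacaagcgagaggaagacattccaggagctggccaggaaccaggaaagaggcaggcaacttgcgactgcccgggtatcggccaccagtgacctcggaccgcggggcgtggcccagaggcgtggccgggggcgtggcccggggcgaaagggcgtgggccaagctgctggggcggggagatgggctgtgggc
Efnb2, chr8:8661243-8661492: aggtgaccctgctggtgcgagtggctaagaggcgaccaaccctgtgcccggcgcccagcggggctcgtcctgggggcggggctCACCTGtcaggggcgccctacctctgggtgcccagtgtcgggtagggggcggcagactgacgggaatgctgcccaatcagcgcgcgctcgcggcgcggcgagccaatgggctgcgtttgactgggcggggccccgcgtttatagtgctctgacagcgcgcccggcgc
Epha1, chr6:42373269-42373518: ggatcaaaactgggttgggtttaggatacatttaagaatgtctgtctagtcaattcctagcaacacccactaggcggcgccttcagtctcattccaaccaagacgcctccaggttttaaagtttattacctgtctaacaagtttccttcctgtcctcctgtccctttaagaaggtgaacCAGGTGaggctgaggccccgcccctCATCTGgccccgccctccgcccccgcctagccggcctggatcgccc

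The E-box begins 25 bases before the start site in *Ephb2*, 167 bases before it in *Efnb2*, and 71 and 46 bases before it in *Epha1*, and the *Plxnd1* window holds none. G and C made up 68.4% of the *Ephb2*, 64.8% of the *Plxnd1*, 72.0% of the *Efnb2* and 54.4% of the *Epha1* window. A window with its start site within 500 bases of the deposited 5′ end was found for 52 of the 67 guidance genes, 12 of the 17 past the threshold among them. *Sema3f*, *Sema4d*, *Efnb3*, *Plxna1* and *Slit1* had no such window. The letters CANNTG stood in 44.2% of these 52 windows (23 genes) and in 66.2% of all 32851 RefSeq promoters, read on both strands, which for this motif are the same letters. The RUNX letters TGTGGT stood in 9.62% of the guidance windows (5 genes) and 14.0% of all promoters, the GATA letters AGATAA in 3.85% (2 genes) and 9.99%, the ETS letters GGAAGT in 15.4% (8 genes) and 19.7%, and the AP-1 letters TGANTCA in 1.92% (1 gene) and 6.75%. An E-box may overlap any of the others. The guidance windows were richer in G and C, with a median of 65.4% against 52.4%, and in CpG, with a median observed over expected ratio of 0.64 against 0.373. The sets are unlike: the guidance windows were a single one per protein-coding gene, nearest to its deposited 5′ end. The full set held every RefSeq promoter without such a choice. A match is a description of the letters and was not tied to binding.

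Levels per gene length, in the authors' FPKM, differed widely among the guidance genes and set which of them made up each family. Sema4d, Plxnc1, Sema4a, Ntn4 and Sema4b stood highest. In *WT Phf6,RE9a* cells their mean FPKM was 36.2 for *Sema4d*, 32.7 for *Plxnc1*, 26.7 for *Sema4a*, 17.3 for *Ntn4* and 8.91 for *Sema4b*. In *VC Phf6,RE9a* cells *Plxnc1* stood first at 36.3 FPKM, followed by *Sema4a* at 26.2, *Ntn4* at 24.5, *Sema4d* at 23.2 and *Sema4b* at 9.86. The SD over 3 libraries ran from 2.59 to 3.40 FPKM for the first 4 of these in *VC Phf6,RE9a* cells, so that *Sema4a*, *Ntn4* and *Sema4d* there did not differ beyond their spread. No other guidance gene reached a mean of 5 FPKM in either group.

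**Figure D2:**
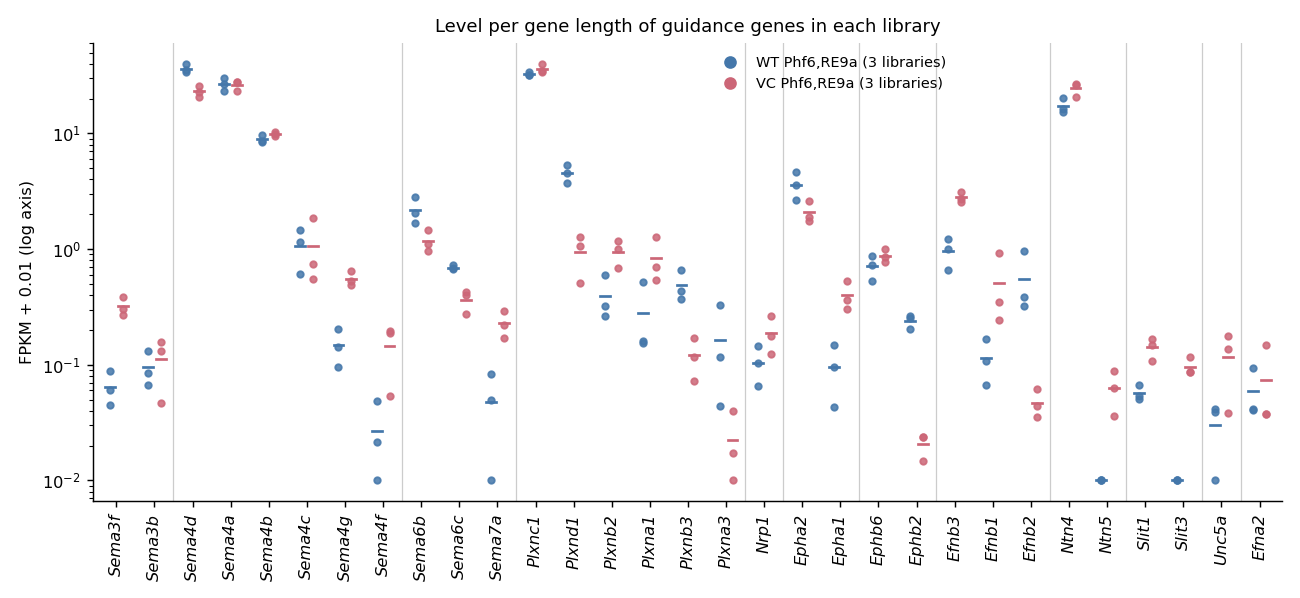
FPKM plus 0.01, on a log axis, in each library for the 31 guidance genes with a mean of at least 0.05 FPKM in either group, ordered by subfamily with grey lines between subfamilies; points are libraries and short bars are group means. *Sema4d*, *Sema4a*, *Sema4b*, *Plxnc1* and *Ntn4* stand well above the rest in both groups, and *Plxnd1*, *Ephb2* and *Efnb2* drop from *WT Phf6,RE9a* to *VC Phf6,RE9a*.

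Among the semaphorins, the transmembrane class 4 ligands held nearly all of the signal, and *Sema4d*, the highest of them in *WT Phf6,RE9a* cells, fell. *Sema4d*, a ligand of plexins B1 and B2 and of the lymphocyte receptor Cd72, lies on chromosome 13 from 51685529 to 51793747. It had 4698, 3873 and 4496 counts in *WT Phf6,RE9a* libraries and 3031, 2732 and 3417 in *VC Phf6,RE9a* libraries. Every *VC Phf6,RE9a* library lay below every *WT Phf6,RE9a* library. The level fell from 279.5 ± 22.2 to 180.1 ± 21.9 CPM (n = 3), a log2 fold change of -0.63 (SE 0.11, edgeR adjusted p = 0.00333). *Sema4a*, a semaphorin of dendritic cells and T cells, had 2224, 1880 and 2696 counts against 2561, 2169 and 2574, and the groups overlapped. Its log2 fold change was -0.02 (SE 0.12, edgeR adjusted p = 0.931), an estimate with a SE about as large as that of *Sema4d*. Summed over the 6 class 4 genes, the level was 73.0 ± 4.62 FPKM in *WT Phf6,RE9a* libraries and 61.0 ± 5.74 in *VC Phf6,RE9a* cells, of which *Sema4d* made up 49.6% and 38% and *Sema4a* 36.5% and 43%.

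*Sema4b* had 750, 808 and 799 counts in *WT Phf6,RE9a* libraries and 923, 956 and 993 in *VC Phf6,RE9a* libraries. The raw counts did not overlap, but after TMM scaling the CPM values did. The level was 50.5 ± 3.62 and 56.3 ± 2.33 CPM (n = 3), and the log2 fold change of 0.16 (SE 0.09, edgeR adjusted p = 0.199) did not pass the threshold. *Sema4c*, a ligand of plexin B2, had 102, 41 and 88 counts against 58, 43 and 146. These libraries scattered within each group, and the log2 fold change was -0.01 (SE 0.51, edgeR adjusted p = 0.985). *Sema4g*, another plexin B2 ligand, on chromosome 19 from 44989101 to 45003397, rose from a low level: it had 10, 14 and 7 counts in *WT Phf6,RE9a* libraries and 40, 54 and 43 in *VC Phf6,RE9a* libraries. It went from 0.673 ± 0.264 to 2.68 ± 0.408 CPM (n = 3), a log2 fold change of 1.99 (SE 0.36, edgeR adjusted p = 0.00369), with no overlap between the groups. At 0.545 FPKM in *VC Phf6,RE9a* cells it remained 0.894% of the class 4 sum.

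The class 6 semaphorins *Sema6b* and *Sema6c*, transmembrane ligands of A-type plexins, were both lower. *Sema6b*, on chromosome 17 from 56123085 to 56140343, gave 103, 167 and 134 counts in *WT Phf6,RE9a* libraries and 75, 99 and 65 in *VC Phf6,RE9a* libraries. It fell from 8.70 ± 2.37 to 4.68 ± 0.977 CPM (n = 3), a log2 fold change of -0.89 (SE 0.27, edgeR adjusted p = 0.0310). The groups did not overlap after scaling, but the call was lost without *WT Phf6,RE9a* library 2 (adjusted p = 0.0776) and without *VC Phf6,RE9a* library 11 (0.0946) or 13 (0.0950). *Sema6c*, on chromosome 3 from 95160457 to 95174024, gave 60, 63 and 67 counts against 27, 40 and 42. It fell from 4.07 ± 0.189 to 2.14 ± 0.479 CPM (n = 3), a log2 fold change of -0.93 (SE 0.27, edgeR adjusted p = 0.0251). That call was lost without *WT Phf6,RE9a* library 1 (adjusted p = 0.0507) or 2 (0.0505) and without *VC Phf6,RE9a* library 11 (0.0873) or 12 (0.0602). The 7 genes of classes 5 to 7 summed to 2.92 ± 0.570 and 1.79 ± 0.328 FPKM, with *Sema6b* at 74.5% and 65.2% of the sum.

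*Sema3f*, a secreted class 3 semaphorin that binds neuropilin 2 and A-type plexins, lies on chromosome 9 from 107681500 to 107710475. Its 4, 6 and 3 counts in *WT Phf6,RE9a* stood below the 26, 34 and 23 counts in *VC Phf6,RE9a* libraries. The level rose from 0.282 ± 0.114 to 1.63 ± 0.317 CPM (n = 3), a log2 fold change of 2.51 (SE 0.41, edgeR adjusted p = 0.00224), the largest increase among the 23 tested guidance genes. *Sema3b* had 9, 4 and 6 counts against 10, 3 and 12 and was not tested. The 7 class 3 genes together came to 0.162 ± 0.0314 FPKM in *WT Phf6,RE9a* libraries and 0.435 ± 0.0341 in *VC Phf6,RE9a* cells, a small part of all semaphorin signal, and *Sema3f* made up 33.3% and 71.2% of it.

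The plexins, the receptors of semaphorins, kept a like total while their make-up differed. The 9 plexin genes summed to 38.5 ± 1.15 FPKM in *WT Phf6,RE9a* libraries and 39.1 ± 4.16 in *VC Phf6,RE9a* cells. *Plxnc1*, the receptor of Sema7a, made up 84.9% and 92.8% of this. It had 4126, 4191 and 4501 counts against 4902, 5803 and 4927, and each *VC Phf6,RE9a* library lay above every *WT Phf6,RE9a* library. Its log2 fold change of 0.16 (SE 0.09, edgeR adjusted p = 0.202) did not pass the threshold.

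*Plxnd1*, the receptor of Sema3e that also binds Sema4a, was the second plexin by level in *WT Phf6,RE9a* cells and showed the largest fall among the tested plexins. It lies on chromosome 6 from 115954811 to 115995005, and its promoter is the one printed above without an E-box. It had 601, 488 and 450 counts in *WT Phf6,RE9a* libraries and 131, 158 and 63 in *VC Phf6,RE9a* libraries, with no overlap. The level fell from 33.1 ± 5.88 to 6.88 ± 2.82 CPM (n = 3), a log2 fold change of -2.26 (SE 0.31, edgeR adjusted p = 0.00105). Its share of the plexin FPKM was 11.7% in *WT Phf6,RE9a* libraries and 2.39% in *VC Phf6,RE9a* cells. With any 1 library left out, the log2 fold change stayed between -2.52 and -1.97.

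The 3 B-type plexins that bind class 4 and class 5 semaphorins did not move together. *Plxnb3*, the receptor of Sema5a, on chromosome X from 73757090 to 73772514, gave 65, 35 and 46 counts in *WT Phf6,RE9a* libraries and 12, 18 and 7 in *VC Phf6,RE9a* libraries. It fell from 3.12 ± 0.968 to 0.723 ± 0.316 CPM (n = 3), a log2 fold change of -2.10 (SE 0.41, edgeR adjusted p = 0.00521), without overlap. *Plxnb2*, the receptor of Sema4c, Sema4d and Sema4g, on chromosome 15 from 89155549 to 89180788, gave 30, 36 and 76 counts against 153, 131 and 90. It rose from 2.99 ± 1.41 to 7.33 ± 1.86 CPM (n = 3), a log2 fold change of 1.29 (SE 0.37, edgeR adjusted p = 0.0250). The call was lost without *WT Phf6,RE9a* library 1 (adjusted p = 0.0697) or 2 (0.0653) and without *VC Phf6,RE9a* library 11 (0.0855) or 12 (0.0701). *Plxnb1* had at most 3 counts in any library and was not tested.

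*Plxna1*, which pairs with neuropilins for class 3 semaphorins and binds class 6 semaphorins, lies on chromosome 6 from 89316314 to 89362620. It had 21, 69 and 22 counts in *WT Phf6,RE9a* libraries and 108, 198 and 83 in *VC Phf6,RE9a* libraries, the highest *WT Phf6,RE9a* library being close to the lowest *VC Phf6,RE9a* library. It rose from 2.46 ± 1.92 to 7.60 ± 3.47 CPM (n = 3), a log2 fold change of 1.64 (SE 0.56, edgeR adjusted p = 0.0452). This call was lost without *WT Phf6,RE9a* library 1 (adjusted p = 0.124) or 3 (0.116) and without *VC Phf6,RE9a* library 11 (0.0763) or 12 (0.156), while without *WT Phf6,RE9a* library 2 the log2 fold change was 2.48 (0.00525). It was also lost with limma on log2(FPKM + 1) (adjusted p = 0.0516). *Plxna3* had 39, 4 and 14 counts against 4, 1 and 0 and was not tested. The co-receptor neuropilin 1, *Nrp1*, had 14, 8 and 22 counts against 43, 28 and 19, overlapping groups and a log2 fold change of 0.91 (SE 0.45, edgeR adjusted p = 0.136). *Nrp2* was read 3, 5 and 4 times in *WT Phf6,RE9a* libraries and 6, 6 and 3 times in *VC Phf6,RE9a* libraries.

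**Figure D3:**
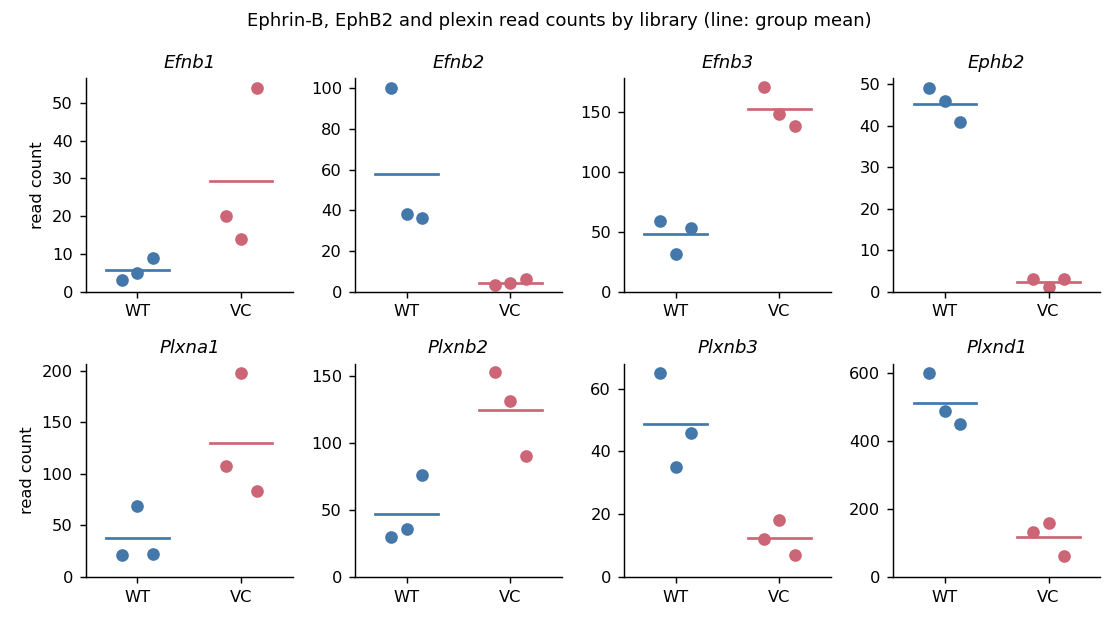
Read counts per library of the 3 ephrin-B ligands, *Ephb2* and the 4 plexins past the threshold, each panel with its own axis from 0; points are libraries and lines are group means. *Efnb2*, *Ephb2*, *Plxnb3* and *Plxnd1* are lower and *Efnb1*, *Efnb3*, *Plxna1* and *Plxnb2* higher in every *VC Phf6,RE9a* library than in any *WT Phf6,RE9a* library.

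The 3 ephrin-B genes, which encode transmembrane ligands of EphB receptors, all passed the threshold, with *Efnb2* lower and *Efnb1* and *Efnb3* higher. *Efnb2*, on chromosome 8 from 8617434 to 8661242, gave 100, 38 and 36 counts in *WT Phf6,RE9a* libraries and 3, 4 and 6 in *VC Phf6,RE9a* libraries. *WT Phf6,RE9a* library 1 stood well above the other two, and all 3 lay above every *VC Phf6,RE9a* library. The level fell from 3.74 ± 2.38 to 0.255 ± 0.0916 CPM (n = 3), a log2 fold change of -3.84 (SE 0.58, edgeR adjusted p = 0.00159), and -3.19 without *WT Phf6,RE9a* library 1 (adjusted p = 0.00254). *Efnb3*, on chromosome 11 from 69554092 to 69560205, gave 59, 31 and 53 counts against 171, 148 and 138, again without overlap. It rose from 3.04 ± 0.874 to 8.96 ± 0.994 CPM (n = 3), a log2 fold change of 1.55 (SE 0.27, edgeR adjusted p = 0.00290).

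*Efnb1*, on chromosome X from 99136130 to 99148991, gave 3, 5 and 9 counts in *WT Phf6,RE9a* libraries and 20, 14 and 54 in *VC Phf6,RE9a* libraries, library 13 being the highest by far. It rose from 0.359 ± 0.176 to 1.73 ± 1.29 CPM (n = 3), a log2 fold change of 2.23 (SE 0.65, edgeR adjusted p = 0.0254). Without *VC Phf6,RE9a* library 13 the log2 fold change was 1.44 and the adjusted p 0.0805, and the call was also lost without *WT Phf6,RE9a* library 1 (0.0830) or 2 (0.0662) and with limma on log2(FPKM + 1) (0.0811). Per length, the 3 ephrin-B genes together came to 1.6 ± 0.552 FPKM in *WT Phf6,RE9a* libraries and 3.32 ± 0.309 in *VC Phf6,RE9a* cells. *Efnb3* made up 59.5% and 84% of the sum, *Efnb2* 34.1% and 1.11%, and *Efnb1* 6.46% and 14.9%. *Efnb2* is also a known gene of arterial endothelium, and the summed endothelial genes were higher in *VC Phf6,RE9a* libraries. Most of that sum was *Egfl7* (386, 562 and 476 counts against 851, 663 and 753). It was called higher, as were *Esam* (20, 32 and 22 counts against 170, 107 and 164) and *Tek* (0, 0 and 0 against 72, 217 and 27). *Kdr* did not pass the threshold, and *Cdh5*, not tested, had 2, 2 and 3 counts against 4, 1 and 12. The part of endothelial cells in the fall of *Efnb2* was not tested. None of the 5 ephrin-A genes was tested: *Efna2* had 1, 1 and 3 counts against 1, 1 and 5, *Efna4* a single count, *Efna5* 2 counts in 1 library, and *Efna1* and *Efna3* none.

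*Ephb2*, a receptor tyrosine kinase for ephrin-B ligands, had the smallest p-value of the guidance genes. It lies on chromosome 4 from 136647539 to 136835988, beside the window printed above. It had 49, 46 and 41 counts in *WT Phf6,RE9a* libraries and 3, 1 and 3 in *VC Phf6,RE9a* libraries. The level fell from 2.92 ± 0.387 to 0.138 ± 0.0688 CPM (n = 3), under the 3-count limit in mean, with a log2 fold change of -4.34 (SE 0.43, edgeR adjusted p = 0.000232). Pooled over libraries, 136 counts stood against 7, and the ratio of the depth-scaled counts was 21.2 (95% exact interval 10.02 to 53.75, covering counting error only). *Ephb6*, an Eph receptor without kinase activity, had 42, 29 and 54 counts against 55, 65 and 49, overlapping groups and a log2 fold change of 0.32 (SE 0.28, edgeR adjusted p = 0.399). The 5 EphB genes summed to 0.938 ± 0.161 FPKM in *WT Phf6,RE9a* libraries and 0.898 ± 0.139 in *VC Phf6,RE9a* cells, of which *Ephb2* made up 24.6% and 1.2% and *Ephb6* 74.5% and 96.6%.

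The EphA receptors, which mostly bind ephrin-A ligands, were represented by *Epha2* and, at a low level, *Epha1*. *Epha2*, on chromosome 4 from 141301240 to 141329384, gave 256, 183 and 360 counts in *WT Phf6,RE9a* libraries and 140, 209 and 150 in *VC Phf6,RE9a* libraries. The raw counts overlapped, and after scaling the highest *VC Phf6,RE9a* library lay just under the lowest *WT Phf6,RE9a* library. It fell from 16.9 ± 4.69 to 9.77 ± 2.09 CPM (n = 3), a log2 fold change of -0.79 (SE 0.25, edgeR adjusted p = 0.0347). The call was lost without *WT Phf6,RE9a* library 1 (adjusted p = 0.0703) or 3 (0.0956) and without *VC Phf6,RE9a* library 11 (0.116) or 13 (0.0990). *Epha1*, on chromosome 6 from 42358487 to 42373268, gave 2, 5 and 9 counts against 24, 20 and 35. It rose from 0.337 ± 0.207 to 1.55 ± 0.472 CPM (n = 3), a log2 fold change of 2.16 (SE 0.50, edgeR adjusted p = 0.0105), without overlap. *Epha1* shares 1727 bases with *Zyx* on the other strand, which had a mean of 2976 counts in *WT Phf6,RE9a* libraries and 2905 in *VC Phf6,RE9a* libraries, and the sources do not say whether counting used strand. Per length, *Epha2* made up 97.3% of the EphA sum of 3.70 ± 1.03 FPKM in *WT Phf6,RE9a* libraries and 83.8% of 2.47 ± 0.404 FPKM in *VC Phf6,RE9a* cells.

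**Figure D4:**
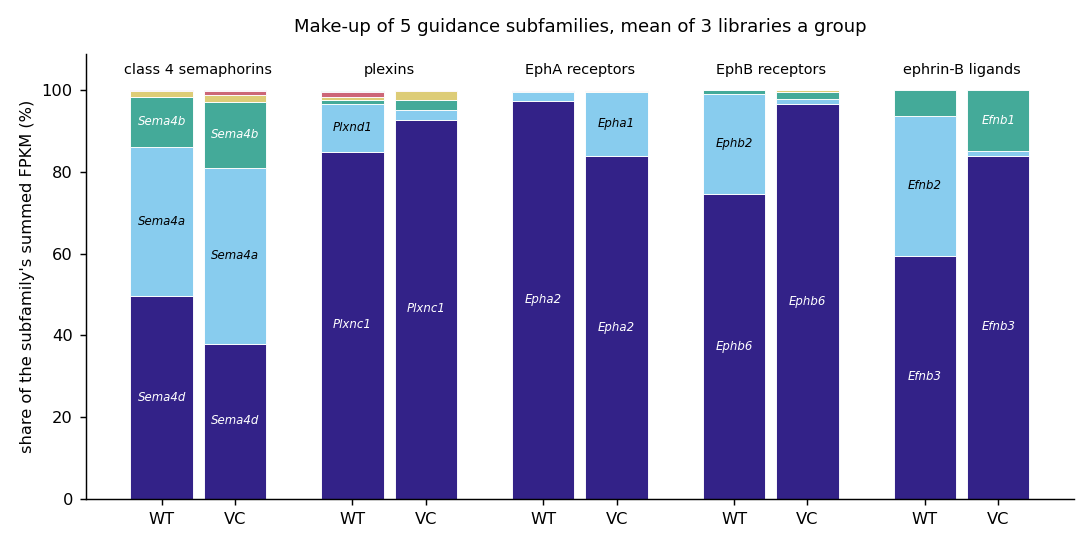
Share of each member, in percent, in the summed FPKM of 5 guidance subfamilies, for *WT Phf6,RE9a* (WT) and *VC Phf6,RE9a* (VC), each bar the mean of 3 libraries; members of at least 7% are named. *Efnb2* goes from 34.1% to 1.11% of the ephrin-B sum, *Ephb2* from 24.6% to 1.2% of the EphB sum and *Plxnd1* from 11.7% to 2.39% of the plexin sum.

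Of the secreted Slits and netrins, *Ntn4* and *Slit1* were tested and both were higher. *Ntn4*, a laminin-related netrin of basement membranes, lies on chromosome 10 from 93640681 to 93747207. It had 1174, 849 and 1021 counts in *WT Phf6,RE9a* libraries and 1332, 1730 and 1674 in *VC Phf6,RE9a* libraries. The level rose from 65.1 ± 9.76 to 92.8 ± 12.4 CPM (n = 3), a log2 fold change of 0.51 (SE 0.14, edgeR adjusted p = 0.0203), with no overlap. The antisense gene *Gm15915* covers 9105 bases of it and had a mean of 1598 counts in *WT Phf6,RE9a* libraries and 2117 in *VC Phf6,RE9a* libraries, and without knowledge of strand the reads of the pair cannot be told apart. The call was lost without *WT Phf6,RE9a* library 2 (adjusted p = 0.0538) or 3 (0.0575) and without *VC Phf6,RE9a* library 12 (0.0752) or 13 (0.0700). *Ntn1* was read at most 3 times in any library, as was *Ntn5*.

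*Slit1*, a ligand of Robo receptors, on chromosome 19 from 41600257 to 41743665, gave 4, 5 and 4 counts in *WT Phf6,RE9a* libraries and 16, 14 and 10 in *VC Phf6,RE9a* libraries, without overlap. It rose from 0.280 ± 0.0516 to 0.784 ± 0.177 CPM (n = 3), a log2 fold change of 1.47 (SE 0.41, edgeR adjusted p = 0.0221). The call was lost with DESeq2 (adjusted p = 0.108), in the fit without a count filter (0.0735), with limma on log2(FPKM + 1) (0.184) or log2(FPKM + 0.1) (0.0567), and without *WT Phf6,RE9a* library 1 (0.0749) or 3 (0.0711) or *VC Phf6,RE9a* library 11 (0.0910) or 12 (0.0729). *Slit3* had no count in *WT Phf6,RE9a* libraries and 8, 8 and 11 counts in *VC Phf6,RE9a* libraries. Against the 3-count limit of the shallowest *WT Phf6,RE9a* library, 0.203 CPM, its mean of 0.530 CPM was at least 2.61-fold higher. Their receptors were close to unread: *Robo1* and *Robo2* had no count in any library, *Robo3* had 4, 2 and 3 counts against 3, 0 and 0, and *Robo4* had 1 count in 1 library of each group. The netrin receptor gene *Unc5a* had 2, 0 and 2 counts against 9, 12 and 2, and shares 34 bases with *Hk3*, which went from a mean of 66 to 428.3 counts. *Unc5b* had 3 counts in 1 *VC Phf6,RE9a* library.

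The 44 untested guidance genes were rare in these cells. In all 6 libraries 11 of them had no count, 31 had at most 3 counts in every library, and 13 exceeded 3 counts in at least 1 library, up to 39 for *Plxna3*. Besides those given above, *Sema7a*, the GPI-anchored ligand of plexin C1, had 2, 0 and 4 counts in *WT Phf6,RE9a* libraries and 12, 16 and 9 in *VC Phf6,RE9a* libraries. *Sema4f* had 0, 3 and 1 counts against 16, 17 and 4. In both genes every *VC Phf6,RE9a* library lay above every *WT Phf6,RE9a* library. In an edgeR fit without a count filter, which left out the 11 genes without a count, 4 of these 44 genes passed the threshold. *Slit3* (adjusted p = 0.00345), *Sema4f* (0.0257) and *Sema7a* (0.03225) were higher and *Plxna3* (0.0124) was lower. Over all genes, that fit called 3046 higher and 3381 lower of 26046. *Sema5a*, the ligand of plexin B3, had 5, 0 and 5 counts against 8, 1 and 11, and *Sema6d*, a ligand of plexin A1, had 5, 0 and 2 counts against 4, 9 and 1.

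Known ligand and receptor pairs moved in different ways. *Sema4d* fell while its receptor *Plxnb2* rose, from a level per length of 0.385 to 0.939 FPKM. *Plxnb2* and its other ligand *Sema4g* were both higher, and *Sema4c* did not pass the threshold. The receptor *Plxnd1* fell while its ligand *Sema3e* had at most 3 counts in every library and *Sema4a* did not pass. Among the ephrin-B ligands and the EphB receptors, *Ephb2* and *Efnb2* fell together, and *Efnb1* and *Efnb3* rose. *Ephb1*, *Ephb3* and *Ephb4* had at most 3 counts in every library, and *Ephb6* did not pass the threshold. No pairwise relation was tested.

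Beyond the ligands and receptors, 64 genes of co-receptors and signalling partners were followed, of which 39 were tested: 11 were higher, 17 lower and 11 did not pass the threshold, beside 21.5% and 22.7% of all tested genes. Their median log2 fold change was -0.17. Of the semaphorin and plexin co-receptors, 3 were higher and 1 was lower among 7 tested. *Cd72*, a B cell receptor of Sema4d, had 3, 4 and 4 counts in *WT Phf6,RE9a* libraries and 57, 44 and 14 in *VC Phf6,RE9a* libraries, a log2 fold change of 3.22 (SE 0.61, edgeR adjusted p = 0.00435). The B cell genes were higher beside it and were also lowest in library 13 among the *VC Phf6,RE9a* libraries. The same held for the granulocyte genes. The part of either in this result was not tested. *Met*, a receptor tyrosine kinase that pairs with plexin B1, had 3, 4 and 11 counts against 39, 32 and 22, a log2 fold change of 2.23 (SE 0.49, edgeR adjusted p = 0.00833) that became 2.92 without *WT Phf6,RE9a* library 3. *Itgb1*, the integrin β1 chain, which with the α1 chain binds Sema7a, went from 5262, 4917 and 6800 to 13615, 12481 and 14958 counts, a log2 fold change of 1.15 (SE 0.12, edgeR adjusted p = 0.000341). *Tyrobp*, the DAP12 adaptor that links plexin A1 and Trem2, had 2012, 1997 and 1501 counts against 715, 577 and 351, a log2 fold change of -1.88 (SE 0.26, edgeR adjusted p = 0.00108).

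Of the 12 tested plexin signalling genes, 4 were higher and 5 lower. *Rnd1*, a small GTPase that binds the cytoplasmic part of plexins, had 22, 84 and 27 counts in *WT Phf6,RE9a* libraries and 324, 306 and 280 in *VC Phf6,RE9a* libraries, a log2 fold change of 2.62 (SE 0.49, edgeR adjusted p = 0.00410) that became 3.53 without *WT Phf6,RE9a* library 2. *Dpysl2*, which encodes the collapsin response mediator CRMP2, had 564, 441 and 477 counts against 197, 153 and 184, a log2 fold change of -1.60 (SE 0.16, edgeR adjusted p = 0.000243). *Fes*, a cytoplasmic tyrosine kinase of myeloid cells that acts under plexin A1, had 8002, 7086 and 4222 counts against 2836, 2043 and 2516, a log2 fold change of -1.53 (SE 0.26, edgeR adjusted p = 0.00287). *Arhgef11*, the guanine nucleotide exchange factor that binds B-type plexins, had 499, 499 and 506 counts against 205, 209 and 163, a log2 fold change of -1.51 (SE 0.14, edgeR adjusted p = 0.000162). For all 4 genes the groups did not overlap. The other 5 genes past the threshold changed by less than 2-fold.

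Of the 10 tested Eph and ephrin signalling genes, 1 was higher and 6 lower. *Tiam1*, a Rac exchange factor that binds EphA2 and ephrin-B1, had 3247, 2462 and 2216 counts in *WT Phf6,RE9a* libraries and 419, 538 and 413 in *VC Phf6,RE9a* libraries, a log2 fold change of -2.67 (SE 0.19, edgeR adjusted p = 6.26e-05). *Nck2*, an adaptor recruited by B-type ephrins, had 1829, 2254 and 1729 counts against 617, 734 and 595, a log2 fold change of -1.72 (SE 0.15, edgeR adjusted p = 0.000163). *Grb10*, an adaptor that binds EphB1, had 1179, 929 and 1354 counts against 532, 595 and 582, a log2 fold change of -1.14 (SE 0.12, edgeR adjusted p = 0.000287). *Vav3*, an exchange factor recruited by Eph receptors, went the other way, with 4, 2 and 24 counts against 79, 65 and 42 and a log2 fold change of 2.52 (SE 0.70, edgeR adjusted p = 0.0216). *WT Phf6,RE9a* library 3 held most of the reads of *Vav3* in its group and still lay below each *VC Phf6,RE9a* library. Without it the log2 fold change was 4.14, and the call was lost without *WT Phf6,RE9a* library 1 (adjusted p = 0.0659) and without *VC Phf6,RE9a* library 11 (0.0666) or 12 (0.0582). The other 3 lower genes changed by less than 2-fold.

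All 7 tested Slit and Robo signalling genes passed the threshold, 3 higher and 4 lower, and the largest difference was in *Enah*. This gene encodes Mena, an actin regulator of the Ena and VASP family that acts under Robo receptors. It had 815, 1879 and 783 counts in *WT Phf6,RE9a* libraries and 1, 4 and 2 in *VC Phf6,RE9a* libraries, a log2 fold change of -9.03 (SE 0.65, edgeR adjusted p = 7.22e-05), or -8.44 without *WT Phf6,RE9a* library 2. Pooled, 3477 counts stood against 7, a depth-scaled ratio of 542.2 (95% exact interval 262.9 to 1350, counting error only). Its relative *Vasp* was lower by less than 2-fold, as were *Srgap2* and *Myo9b*. *Gpc1*, a heparan sulfate proteoglycan that binds Slits, had 21, 21 and 20 counts against 131, 132 and 44, a log2 fold change of 2.17 (SE 0.44, edgeR adjusted p = 0.00603). *Arhgap39*, which encodes a GTPase-activating protein that binds Robo, had 1195, 898 and 1086 counts against 2963, 2588 and 3093, a log2 fold change of 1.32 (SE 0.12, edgeR adjusted p = 0.000171). *Sdc4*, a heparan sulfate proteoglycan of the syndecan family, had 1, 4 and 5 counts against 13, 14 and 11, a log2 fold change of 1.77 (SE 0.52, edgeR adjusted p = 0.0261). The call of *Sdc4* was lost with DESeq2 (adjusted p = 0.0823), without a count filter (0.0576), and without *WT Phf6,RE9a* library 1 (0.0709) or 2 (0.0511) or *VC Phf6,RE9a* library 11 (0.0784), 12 (0.0838) or 13 (0.0569).

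Of the netrin and RGM partners 3 were tested and 1, *Neo1*, passed the threshold. *Neo1* encodes neogenin, a receptor of netrins and repulsive guidance molecules. It had 77, 690 and 238 counts in *WT Phf6,RE9a* libraries, which differed widely from each other, and 3, 3 and 0 in *VC Phf6,RE9a* libraries, a log2 fold change of -7.46 (SE 1.13, edgeR adjusted p = 0.00159), or -6.29 without *WT Phf6,RE9a* library 2. Pooled, 1005 counts stood against 6, a depth-scaled ratio of 182.8 (95% exact interval 83.7 to 499.4, counting error only). The other receptor of this kind, *Dcc*, had no count in any library.

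**Figure D5:**
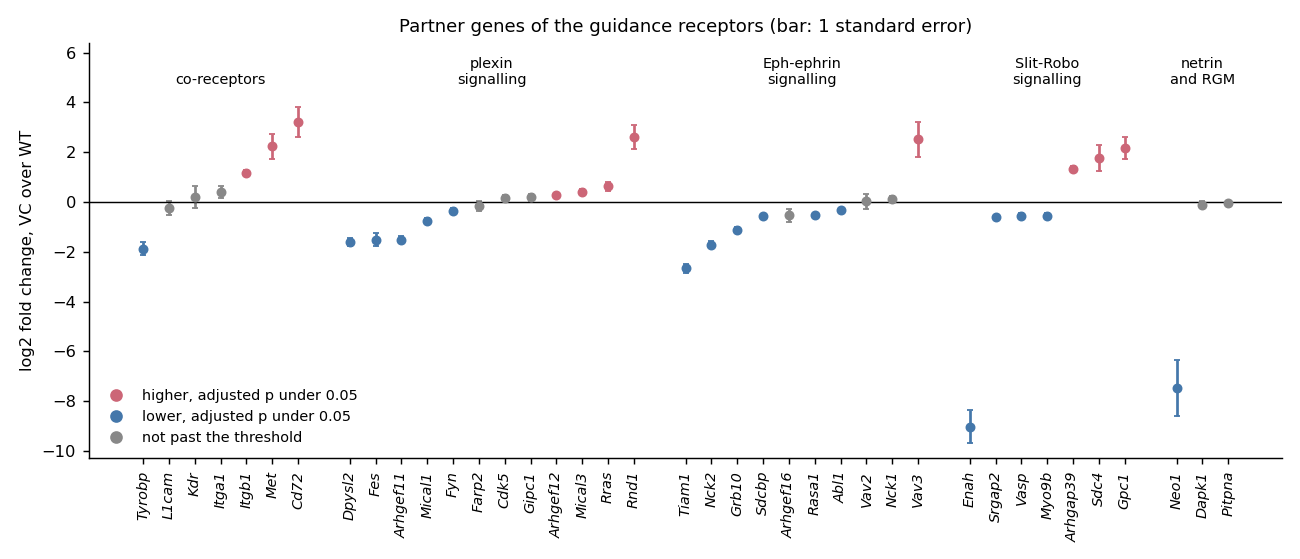
Log2 fold change, *VC Phf6,RE9a* relative to *WT Phf6,RE9a*, for the 39 tested partner genes, from edgeR, in 5 groups by role, with bars of 1 standard error. *Enah* at -9.03 and *Neo1* at -7.46 lie far below the other 37 genes, and *Cd72* at 3.22 is the highest.

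The tested genes with CPM profiles most like those of the 4 guidance genes with the smallest p-values were found by Pearson's r of log2 CPM over the 6 libraries, which is a description only, since all points share 1 contrast. For *Ephb2* these were *St7* (r = 0.9992), *Coro2a* (0.9988) and *BC016579* (0.9982), and for *Plxnd1* they were *Stard9* (0.9977), *Clip1* (0.9964) and *Pitpnm2* (0.9947). For *Efnb2* they were *Gtf2e2* (0.9981), *Ier3* (0.9975) and *Mad2l1bp* (0.9971), and for *Sema3f* they were *Csad* (0.9995), *Spx* (0.9986) and *Dab2ip* (0.9977).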

How the data were processed

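RNA of GFP+ bone marrow leukemia cells, 3 libraries from *WT Phf6,RE9a* mice and 3 from *VC Phf6,RE9a* mice, was prepared with the Illumina TruSeq kit. The authors deposited raw read counts per Ensembl gene and FPKM values, which they normalized by gene length and library size, in 1 table. Its columns of the authors' own comparison (group means, log2 fold changes and p-values) were not used, and it held 0 other per-sample columns. The submitters' notes name Bowtie 0.12.0 and mm8, but 67 of 67 guidance genes and 53499 of 54532 genes had the start and end of GENCODE M21, so the deposited coordinates are read as GRCm38. The counting tool and the strandedness are not given in the sources used here.

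In R 4.3.3, counts were filtered with edgeR 4.0.16 (filterByExpr, minimum count 10), given TMM factors and tested by quasi-likelihood, with p-values adjusted after Benjamini and Hochberg over 14169 genes and a threshold of 0.05. The step was tested on simulated data. Log2 CPM used a prior count of 2. Levels of different genes were compared only in FPKM. The chi-square per gene between libraries of a group lay from 32.5 to 46.4 in *WT Phf6,RE9a* and from 11.8 to 15.4 in *VC Phf6,RE9a*. All were above counting noise, so none was taken as a second reading of the same library. This cannot tell separate leukemias from separate preparations of 1 leukemia, which can also differ beyond counting noise. The members, the lists, the tests and the rule for named genes were chosen with earlier results of these data known. The rule names every tested guidance gene, gives all values for those past the threshold and for the first 2 of each subfamily by FPKM, and names partner genes past the threshold by at least 2-fold, at most 3 a direction in each list. Promoters came from RefSeq (GRCm38.p6). The 500-base limit on them, and the limit to windows outside the gene for those printed, were set after the distances were seen. Alternatives were DESeq2 1.42.0, RLE size factors, all genes with a count, a minimum of 10 counts in all libraries, limma 3.58.1 on FPKM with a pseudocount of 1 or 0.1 on the log2 scale, leaving out 1 library at a time, and a minimum change of 2-fold. Plots were made in Python 3.11.15 (matplotlib 3.10.9).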

Additional observations from a re-analysis of the deposited data

How the results depend on the processing

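*Phf6* was lower in all 12 alternatives, with a log2 fold change between -1.76 and -1.39. The calls of *Sema3f*, *Sema4g*, *Epha1*, *Efnb3*, *Sema4d*, *Ephb2*, *Efnb2*, *Plxnb3* and *Plxnd1* held with every other tool, scaling, filter and unit that tested them and with each library left out. Of these, *Sema3f*, *Sema4g*, *Epha1*, *Ephb2*, *Efnb2* and *Plxnb3* entered the test only through the group in which they are high. The filter of 10 counts in every library did not test them, so it cannot speak to their calls. The change of *Sema4d* is under the minimum of 2-fold. Over the guidance genes, 225 gene values held their direction and call, 36 lost the call with the same direction, and 6 changed sign, all in genes that did not pass the threshold: *Sema4a*, at 0.07 without *WT Phf6,RE9a* library 3 (0.0695) or *VC Phf6,RE9a* library 12 (0.0706) and as low as -0.11 without *WT Phf6,RE9a* library 2, and *Sema4c*, at 0.25, 0.04, 0.19 and 0.30 without *WT Phf6,RE9a* library 1 or 3 or *VC Phf6,RE9a* library 11 or 12 and at -0.73 without library 13. With at least 10 counts in every library, which tests fewer genes, 4 guidance genes were higher and 5 lower of 14 tested. Of 32 partner genes tested there, 7 were higher and 15 lower. Over all genes, that filter gave 2565 higher and 2717 lower of 12087 tested. With a minimum change of 2-fold, 8 guidance genes were higher and 4 lower of 23 tested. Of 39 tested partner genes, 8 were higher and 9 lower by that rule. All tested genes were not counted at 2-fold. With 1 library left out, 5 to 9 guidance genes were higher and 6 to 7 lower, of 24 to 27 tested. The 5 came without *WT Phf6,RE9a* library 1 or *VC Phf6,RE9a* library 12. Of 39 to 42 partner genes tested, 6 to 10 were higher and 15 to 17 lower. Here 7 were higher without *VC Phf6,RE9a* library 11 and 6 without library 12. Over all genes, these fits called 2179 to 3132 higher and 2511 to 3338 lower, of 14580 to 14757 tested. The main fit called 3047 higher and 3213 lower of 14169. The cause was not tested. Depth limits the rare genes, since 44 of the 67 guidance genes had too few counts to test. No paired analysis was possible because the groups share no replicate number.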
